A study of Mus musculus with 10 samples.

Results

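The chromatin of 4 genes for factors of innate lymphoid cell (ILC) development, Id2, Zbtb16, Bcl11b and Ets1, was followed in ILCs of mice carrying floxed alleles for RORgt alone, RORgt with T-bet, or RORgt with RORa. A peak, a region where sequencing reads of open chromatin pile up, was assigned to one of these genes if its nearest protein-coding gene body, within 50 kb, was that gene. The rule used position only and gave 38 of 36251 peaks: 6 for Id2, 14 for Zbtb16, 4 for Bcl11b and 14 for Ets1. No peak was shared between overlapping genes, and all 38 were tested, since no filter on low values was applied.

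The assay was ATAC-seq, where a transposase inserts sequencing adapters into open DNA, and the ILCs were sorted from lamina propria of the small intestine of mice on the C57BL/6 background. All 4 groups carried Id2creERT2, a Cre recombinase activated by tamoxifen and driven from Id2, together with the tdRFP reporter, and all mice received tamoxifen in their food for several weeks. Control (n = 3) had no floxed allele, RORgt-KO (n = 2) had Rorcf/f, RORgt-Tbet-KO (n = 2) had Rorcf/f and Tbx21f/f, and RORgt-RORa-KO (n = 3) had Rorcf/f and Roraf/f. Libraries of a group were biological replicates, each made from a single mouse or a pool of 2 or 3; sort markers, ages and the floxed exons are not stated in the labels, so loss of the floxed sequence was not checked here. Because the Cre driver sits at Id2 in every group, including Control, an effect of that allele on the Id2 peaks cannot be told apart from the level of the locus itself. A group mean is an average over the sorted cells, so more cells of one type and more accessibility per cell cannot be told apart.

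ID2 is a helix-loop-helix protein without a DNA-binding region that holds E proteins away from DNA, and all ILC lineages need it. Zbtb16 encodes PLZF, a BTB zinc finger factor that marks a precursor of helper-like ILCs and is also used by natural killer T cells. Bcl11b encodes a zinc finger factor that commits early T cells and, among ILCs, is needed for the type 2 lineage. Ets1 encodes the founding member of the ETS family, which binds DNA at a GGAA core and takes part in the development of T cells, natural killer cells and type 2 ILCs. RORgt defines group 3 ILCs, T-bet type 1 lymphocytes, and RORa is a nuclear receptor related to RORgt.

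The Id2 promoter is shown because the strongest Id2 peak, at chromosome 12, 25096026 to 25096810, contains it whole and was not called between any of the 4 groups. It is the RefSeq sequence of the 250 bases before the annotated start, chr12:25096093-25096342 on the minus strand of GRCm38.p6, written 5′ to 3′. Capitals mark the CCAAT box, the letters CCAAT on either strand, chosen after the sequence had been read.
Id2: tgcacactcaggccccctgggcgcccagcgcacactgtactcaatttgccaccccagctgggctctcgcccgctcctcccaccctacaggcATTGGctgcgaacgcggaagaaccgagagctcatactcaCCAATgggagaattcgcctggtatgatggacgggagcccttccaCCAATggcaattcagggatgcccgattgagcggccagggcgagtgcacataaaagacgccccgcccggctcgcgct
The CCAAT box occurred 3 times, read as CCAAT from 120 and from 76 bases before the start and as its reverse complement ATTGG from 159 bases before it. Of 32851 promoter windows of this length, 33.8% held at least 1 such match and 2.79% held 3 or more. The window also held 1 E-box (CANNTG), the site of E proteins, which 66.2% of windows held, and 2 matches to the ETS core GGAA, which 93.4% held. Neither the nuclear receptor element AGGTCA, bound by ROR factors (14.0% of windows), nor the T-box core GGTGTGA (3.33%) was among the letters of this window. Both strands were searched for each of the 5 motifs, and the printed matches do not overlap one another. A match of letters describes the sequence and is not evidence of binding. Promoter windows were given for 2 of the 4 genes; that of Bcl11b lay 290 bp from its nearest peak and is not printed.

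Values below are the authors' log2 scaled read counts per peak, so a difference of 1 is a doubling. Differences were tested with limma over all 36251 peaks, SE is limma's moderated standard error, and a peak was called when its Benjamini-Hochberg adjusted p was below 0.05. Peaks are named by the distance of their centre, in kb, from the lower-coordinate end of the gene body. Reads in peaks ranged from 2518233 to 3381784 in Control, 2630478 to 3388680 in RORgt-KO, 4580787 to 5047436 in RORgt-Tbet-KO and 2271585 to 4733829 in RORgt-RORa-KO, so RORgt-Tbet-KO was the deepest group. RORgt-RORa-KO replicate 3 held the 4733829 reads.

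Across the 4 groups, 14 of the 38 peaks (36.8%) were called in the moderated F test, against 30.7% of all peaks. By gene this was 2 of 6 in Id2, 7 of 14 in Zbtb16, 2 of 4 in Bcl11b and 3 of 14 in Ets1. The 5 peaks within 1 kb of a gene end (2 in Id2, 2 in Zbtb16, 1 in Bcl11b) gave 0 calls in the F test, also 0 at an unadjusted p under 0.05 and 0 in limma voom. Inside the gene bodies 8 of 20 peaks were called, and between genes 6 of 13. Over all genes these shares were 12.7% at gene ends, 37.4% inside and 37.0% between, so over all genes, too, the share called was lowest at gene ends. Ets1 had no peak within 1 kb of either end. Including single comparisons, 16 of the 38 peaks were called at least once: 0 of 5 at gene ends, 9 of 20 inside and 7 of 13 between. Over all genes, 2286 of 10785, 6699 of 14222 and 3454 of 7572 peaks were called in at least 1 comparison, in the same order.

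Against Control, RORgt-KO had 6 called member peaks, 5 higher and 1 lower, where 12.3% of all peaks were called (5.19% higher and 7.12% lower). RORgt-Tbet-KO also had 5 higher and 1 lower (background 22.6%, 11.3% in either direction). RORgt-RORa-KO had 11 higher and 3 lower (background 31.2%, 15.1% higher and 16.1% lower). As shares of the 38, these are 15.8%, 15.8% and 36.8%. The members' median difference was 0.10, 0.33 and 0.26 in that order, beside 0.02, 0.01 and 0.02 over all peaks. It was 0.12, 0.30 and 0.15 for other early ILC factors and 0.11, 0.28 and 0.07 for other ETS family genes, both listed further below. The 3 comparisons share the same Control libraries. The backgrounds moved with single libraries, so the shares are read against the background of the same fit. In RORgt-KO the members had 3 calls (7.89%, background 4.72%) without RORgt-KO replicate 1 and 4 (10.5%, background 5.77%) without its replicate 2. In RORgt-Tbet-KO they had 4 (10.5%, background 9.27%) without RORgt-Tbet-KO replicate 1 and 5 (13.2%, background 9.82%) without its replicate 2.

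Between knockouts, RORgt-Tbet-KO had 2 lower member peaks than RORgt-KO (background 1.14%, 0.965% lower), RORgt-RORa-KO had 1 higher than RORgt-KO (1.47%, 0.331% higher), and RORgt-RORa-KO had 3 higher and 1 lower than RORgt-Tbet-KO (7.54%, 3.82% higher and 3.72% lower). With RORgt-Tbet-KO and RORgt-KO alone in the fit, 3341 of all 36251 peaks were called between them, beside 415 in the main fit. Without RORgt-RORa-KO replicate 3, calls over all peaks between RORgt-RORa-KO and RORgt-Tbet-KO stayed within 1.5-fold of 2733. The 2 calls between RORgt-Tbet-KO and RORgt-KO became 0 without RORgt-KO replicate 1 or RORgt-Tbet-KO replicate 1 (backgrounds 0.251% and 0.342%), 1 without RORgt-KO replicate 2 (0.389%), 3 without RORgt-RORa-KO replicate 2 (1.96%), and 10 with these groups alone in the fit. They stayed 2 without RORgt-Tbet-KO replicate 2, where the background was 0.563%. The 1 call between RORgt-RORa-KO and RORgt-KO became 0 without RORgt-KO replicate 2 (background 0.237%) and stayed 1 without its replicate 1 (0.632%). The 4 calls between RORgt-RORa-KO and RORgt-Tbet-KO became 1 without RORgt-Tbet-KO replicate 1 (background 2.67%), 2 without its replicate 2 (2.85%) and 9 without RORgt-RORa-KO replicate 3.

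**Figure D1:**
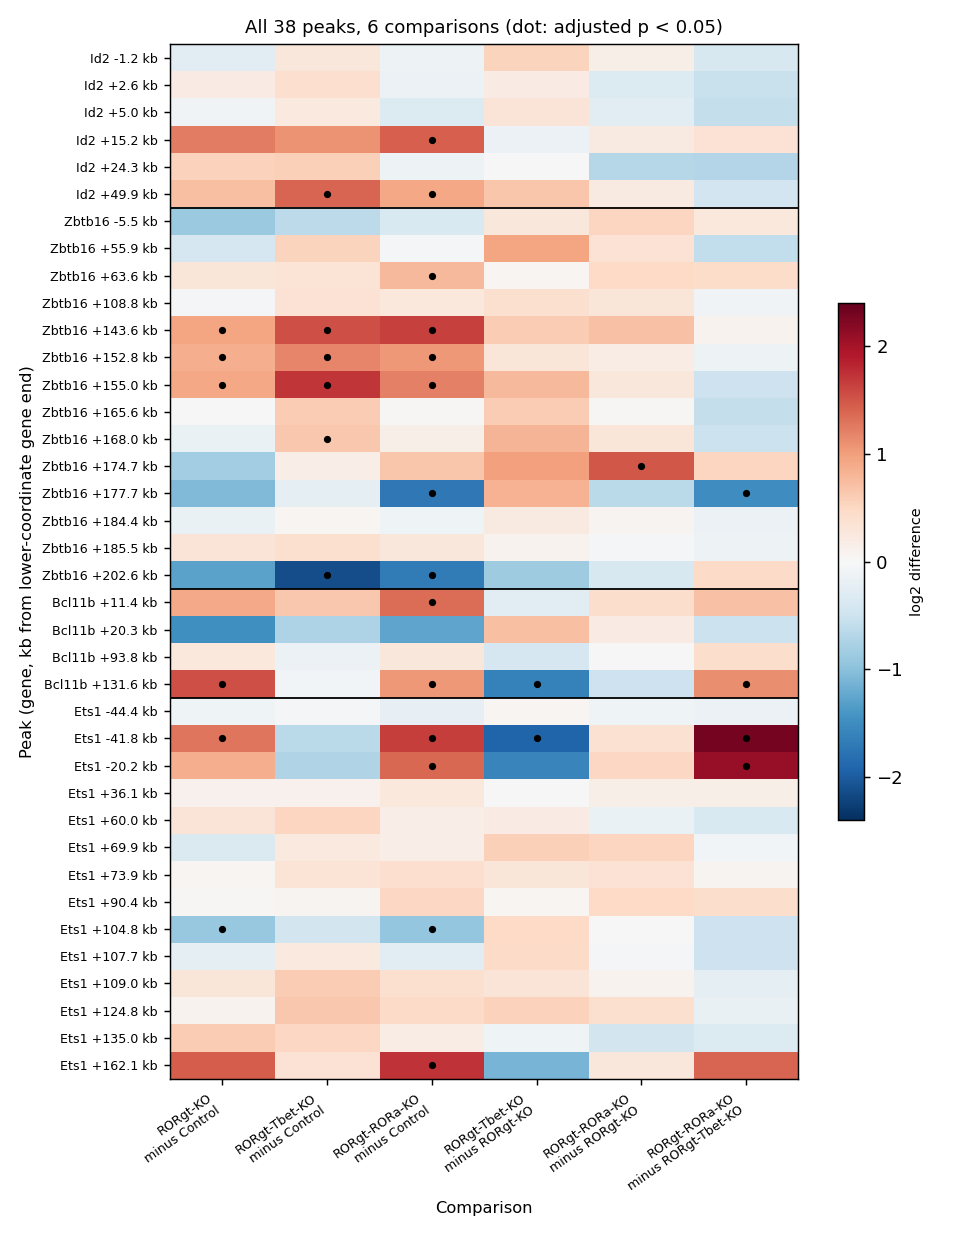
Log2 difference (colour) at each of the 38 peaks (rows, named by gene and kb from the lower-coordinate gene end) in 6 comparisons (columns), with a dot where limma's adjusted p was below 0.05. Dots gather in Zbtb16 between +143.6 and +155.0 kb for the comparisons with Control, while comparisons between knockouts hold dots at 5 peaks of Zbtb16, Bcl11b and Ets1.

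Id2, the inhibitor of E proteins, changed away from its promoter: 2 of its 6 peaks, both between genes, were higher in at least 1 knockout and none was lower. Over all genes, 3454 of 7572 peaks between genes were called in at least 1 comparison. In RORgt-KO no Id2 peak was called in limma or in voom, with 2 at an unadjusted p under 0.05. The promoter peak (+2.6 kb) measured 8.05, 7.99 and 7.86 (Control), 8.03 and 8.31 (RORgt-KO), 7.80, 7.45 and 8.26 (RORgt-RORa-KO), and 8.31 and 8.43 (RORgt-Tbet-KO). It did not pass in any comparison; the difference from Control was 0.41 in RORgt-Tbet-KO (95% interval -0.01 to 0.82) and -0.13 in RORgt-RORa-KO (-0.50 to 0.24). The other gene-end peak (-1.2 kb) and one 2485 bp beyond the gene (+5.0 kb) stayed between 6.43 and 7.70 in all libraries and were not called either.

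The Id2 peak at +49.9 kb (chromosome 12, 25143505 to 25143888), 47413 bp beyond the promoter end and the one nearest to the 50 kb limit, had the smallest adjusted p of the Id2 peaks. It measured 5.99, 6.02 and 5.48 (Control), 6.76 and 6.32 (RORgt-KO), 6.34, 7.23 and 6.71 (RORgt-RORa-KO), and 7.31 and 7.12 (RORgt-Tbet-KO). Every knockout library lay above every Control library. It rose by 1.39 in RORgt-Tbet-KO (SE 0.27, 2.62-fold, adjusted p = 0.000369) and by 0.93 in RORgt-RORa-KO (SE 0.24, adjusted p = 0.00321). In RORgt-KO the difference of 0.71 (SE 0.27) did not pass, at an adjusted p of 0.0791. Just outside the limit, the next peak, 59231 bp from Id2, measured 4.90 to 5.93 in Control and 5.41 to 6.24 in the knockouts.

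A small peak at +15.2 kb (25108897 to 25109124, 5 to 28 reads a library) rose in RORgt-RORa-KO by 1.44 (SE 0.43, 2.71-fold, adjusted p = 0.0117). It measured 2.69, 3.69 and 3.85 (Control), 4.53 and 4.74 (RORgt-KO), 5.07, 4.99 and 4.49 (RORgt-RORa-KO), and 4.44 and 4.55 (RORgt-Tbet-KO), so no knockout library reached down to Control. The call was lost without Control replicate 1 (adjusted p = 0.063) and without RORgt-RORa-KO replicate 1 (adjusted p = 0.0515). RORgt-KO and RORgt-Tbet-KO differed from Control there by 1.22 and 1.08 without passing (adjusted p = 0.102 and 0.109). No Id2 peak was called between knockouts in limma or in voom; at an unadjusted p under 0.05 there were 2 between RORgt-Tbet-KO and RORgt-KO, 0 between RORgt-RORa-KO and RORgt-KO, and 2 between RORgt-RORa-KO and RORgt-Tbet-KO.

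**Figure D2:**
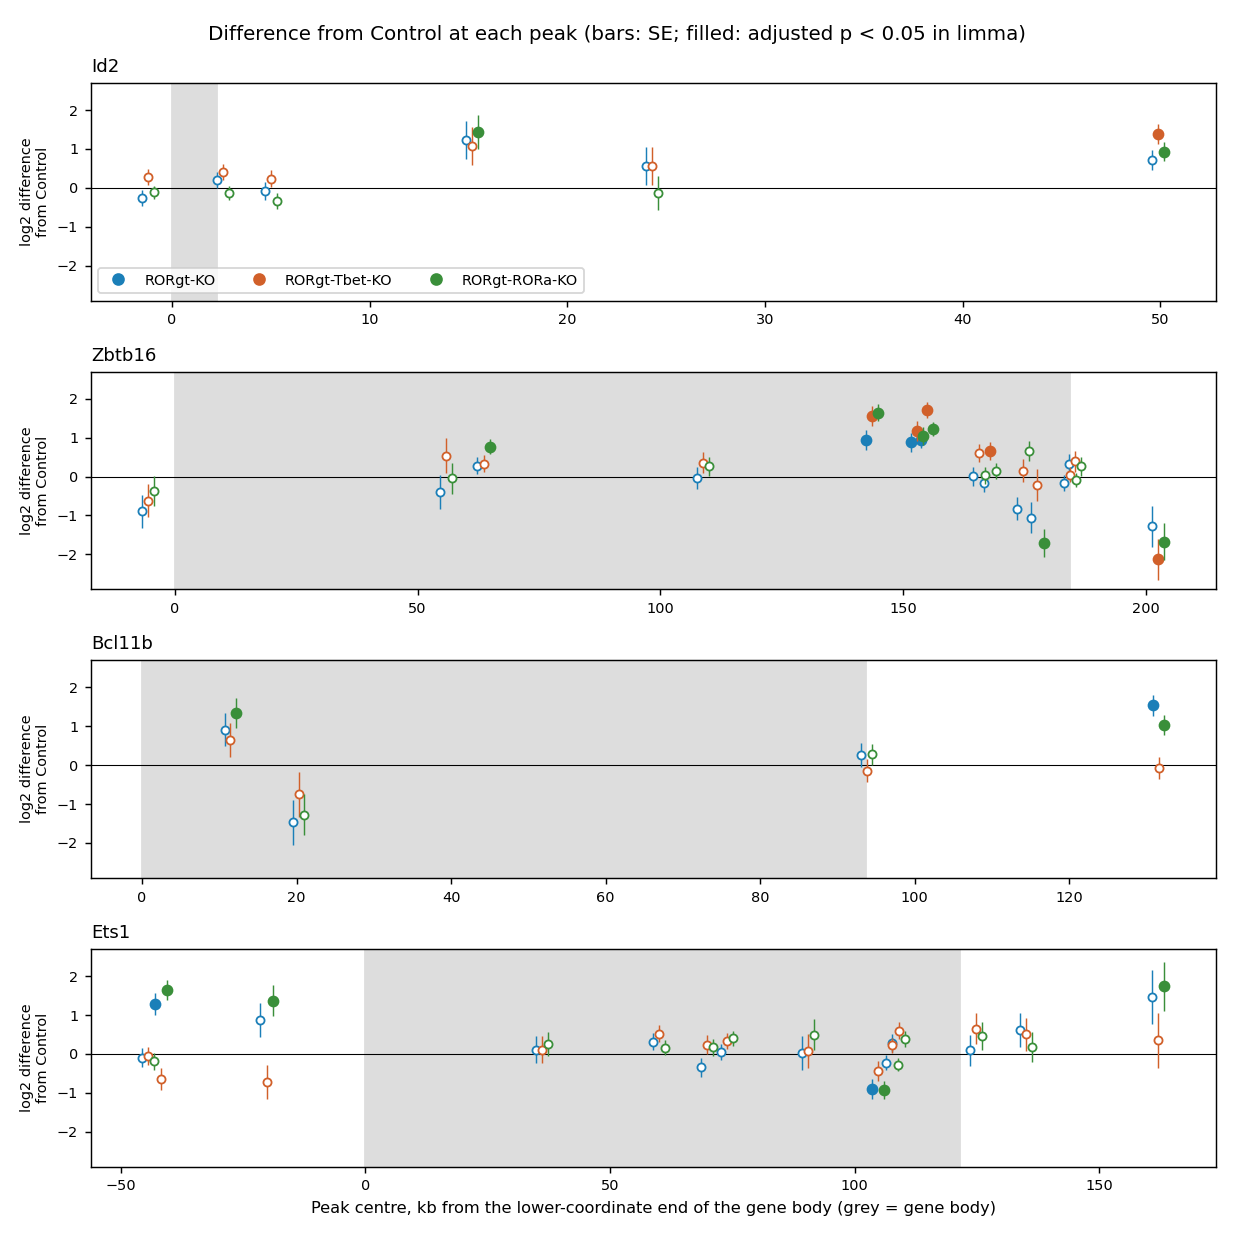
Log2 difference from Control (vertical axis, bars are SE) at each peak by distance in kb from the lower-coordinate end of the gene body (horizontal axis, grey is the gene body), for the 3 knockouts, with filled points where the adjusted p was below 0.05. Points of a peak are set slightly apart sideways; peaks at the gene ends lie near 0, and filled points lie inside Zbtb16, Bcl11b and Ets1 and in the flanks of all 4 genes.

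Zbtb16, the gene of PLZF, had 8 of its 14 peaks called at least once. Of its 10 peaks inside the gene 7 were, beside 6699 of 14222 inside peaks over all genes. Called lower than Control were 0 Zbtb16 peaks in RORgt-KO, 1 in RORgt-Tbet-KO and 2 in RORgt-RORa-KO. Zbtb16 rose in all 3 knockouts at 3 neighbouring peaks inside the gene, at +143.6, +152.8 and +155.0 kb. The strongest, at +155.0 kb (chromosome 9, 48806481 to 48807073), measured 6.86, 6.52 and 6.87 (Control), 7.67 and 7.71 (RORgt-KO), 7.85, 7.75 and 8.30 (RORgt-RORa-KO), and 8.57 and 8.36 (RORgt-Tbet-KO). All 7 knockout libraries exceeded all 3 Control libraries. It rose by 0.94 in RORgt-KO (SE 0.20, 1.91-fold, adjusted p = 0.00216), by 1.71 in RORgt-Tbet-KO (SE 0.20, 3.28-fold, adjusted p = 7.48e-07) and by 1.22 in RORgt-RORa-KO (SE 0.18, 2.32-fold, adjusted p = 6.62e-06). The difference of 0.78 between RORgt-Tbet-KO and RORgt-KO did not pass (95% interval 0.32 to 1.23, adjusted p = 0.0888).

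At +143.6 kb (48794990 to 48795804) the values were 5.07, 5.90 and 5.63 (Control), 6.71 and 6.24 (RORgt-KO), 7.24, 7.10 and 7.18 (RORgt-RORa-KO), and 7.11 and 7.06 (RORgt-Tbet-KO). Again no knockout library overlapped Control. The increase was 0.94 in RORgt-KO (SE 0.25, adjusted p = 0.0128), 1.55 in RORgt-Tbet-KO (SE 0.25, adjusted p = 6.09e-05) and 1.64 in RORgt-RORa-KO (SE 0.23, 3.12-fold, adjusted p = 2.25e-06). At +152.8 kb (48804368 to 48804824) Control measured 5.28, 5.58 and 5.63, RORgt-KO 6.39 and 6.35, RORgt-RORa-KO 6.46, 6.46 and 6.70, and RORgt-Tbet-KO 6.57 and 6.77, again without overlap with Control. That peak rose by 0.88, 1.17 and 1.04 in RORgt-KO, RORgt-Tbet-KO and the third knockout (SE 0.25, 0.25 and 0.22, adjusted p = 0.0191, 0.00113 and 0.000641). The RORgt-KO calls at these last 2 peaks were lost when single libraries were left out. At +143.6 kb the difference was 0.70 without RORgt-KO replicate 1 (adjusted p = 0.26) and 0.71 without Control replicate 1 (adjusted p = 0.0792). At +152.8 kb it stayed at 0.85 and 0.90 without RORgt-KO replicate 1 or 2 (adjusted p = 0.148 and 0.115) and was 0.77 without Control replicate 1 (adjusted p = 0.0706). A fit without the variance trend also ended the RORgt-KO call at +143.6 kb (adjusted p = 0.058).

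In RORgt-RORa-KO, 2 further Zbtb16 peaks inside the gene differed from Control. The peak at +63.6 kb (48715053 to 48715740) rose in RORgt-RORa-KO by 0.77 (SE 0.20, 1.70-fold, adjusted p = 0.00344), from 6.60, 6.44 and 6.53 to 7.24, 7.08 and 7.56. RORgt-KO (6.99 and 6.63) and RORgt-Tbet-KO (6.91 and 6.79) lay between them and did not pass. The peak at +177.7 kb (48829328 to 48829647) fell there by 1.71 (SE 0.36, 3.28-fold, adjusted p = 0.000524). It measured 6.21, 5.13 and 6.20 (Control), 4.74 and 4.82 (RORgt-KO), 4.57, 4.28 and 3.54 (RORgt-RORa-KO), and 5.37 and 5.87 (RORgt-Tbet-KO). RORgt-Tbet-KO lay inside the range of Control, and RORgt-RORa-KO below all other groups. The difference between these 2 double knockouts was -1.49 (SE 0.40, adjusted p = 0.0188). That call was lost without RORgt-Tbet-KO replicate 1 (adjusted p = 0.0811), without RORgt-Tbet-KO replicate 2 (0.322), without RORgt-RORa-KO replicate 3 (0.0598), without the variance trend (0.0728) and with reads thinned to the shallowest library (0.0866).

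Next to it, the peak at +174.7 kb (48826291 to 48826626) separated RORgt-RORa-KO from RORgt-KO. It measured 6.18, 5.62 and 6.03 (Control), 5.41 and 4.82 (RORgt-KO), 6.42, 7.05 and 6.35 (RORgt-RORa-KO), and 6.14 and 6.05 (RORgt-Tbet-KO). RORgt-KO was the lowest group and RORgt-RORa-KO the highest, with no overlap, and the difference between them was 1.49 (SE 0.29, 2.80-fold, adjusted p = 0.0048). Against Control neither group passed, with differences of -0.83 (RORgt-KO, adjusted p = 0.062) and 0.66 (RORgt-RORa-KO, adjusted p = 0.0544). Without RORgt-KO replicate 2 the difference between the knockouts was 1.19 (adjusted p = 0.295), and without the variance trend its adjusted p was 0.0951.

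Beyond the gene, the peak at +202.6 kb (48854235 to 48854600, 18010 bp away, 7 to 42 reads a library) fell. It measured 5.77, 5.66 and 4.92 (Control), 3.87 and 4.46 (RORgt-KO), 4.39, 4.28 and 2.65 (RORgt-RORa-KO), and 3.08 and 3.55 (RORgt-Tbet-KO). Every knockout library lay below every Control library, and the lowest was the deep RORgt-RORa-KO replicate 3. The decrease passed in RORgt-Tbet-KO (-2.13, SE 0.54, 4.38-fold, adjusted p = 0.00463) and in RORgt-RORa-KO (-1.68, SE 0.48, adjusted p = 0.00801), and did not pass in RORgt-KO (-1.28, SE 0.54). It no longer passed in RORgt-Tbet-KO without its replicate 1 (-1.90, adjusted p = 0.0779) or with thinned reads (-1.69, adjusted p = 0.062). In RORgt-RORa-KO without its replicate 3 it was -1.11 (adjusted p = 0.0697).

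The highest Zbtb16 peak, at +165.6 kb, measured 7.77, 7.86 and 7.65 (Control), 7.93 and 7.61 (RORgt-KO), 7.77, 7.18 and 8.44 (RORgt-RORa-KO), and 8.29 and 8.45 (RORgt-Tbet-KO). The 3 deepest libraries were the 3 highest, and no comparison passed. Its neighbour at +168.0 kb (48819544 to 48819998) measured 7.06, 7.09 and 7.02 (Control), 7.04 and 6.76 (RORgt-KO), 6.84, 6.95 and 7.80 (RORgt-RORa-KO), and 7.71 and 7.71 (RORgt-Tbet-KO), with the same 3 libraries on top. It was called in RORgt-Tbet-KO (0.65, SE 0.23, adjusted p = 0.0438) but not by the F test (adjusted p = 0.0615). That call did not pass when any 1 Control, RORgt-KO or RORgt-Tbet-KO library was left out (adjusted p from 0.054 to 0.207), with quantile normalization (0.0595) or without the variance trend (0.145). The part of depth in it was not tested beyond thinning, under which the call stood.

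The 2 peaks at the upper end of Zbtb16, the end where the gene starts, were not called. The larger one (+184.4 kb, 943 bp) stayed between 7.03 and 7.42 in all 10 libraries, with differences from Control of -0.16 (95% interval -0.57 to 0.25), 0.05 (-0.36 to 0.46) and -0.09 (-0.46 to 0.27). No Zbtb16 peak was called between RORgt-Tbet-KO and RORgt-KO in limma, with 5 at an unadjusted p under 0.05 and 1 in voom.

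**Figure D3:**
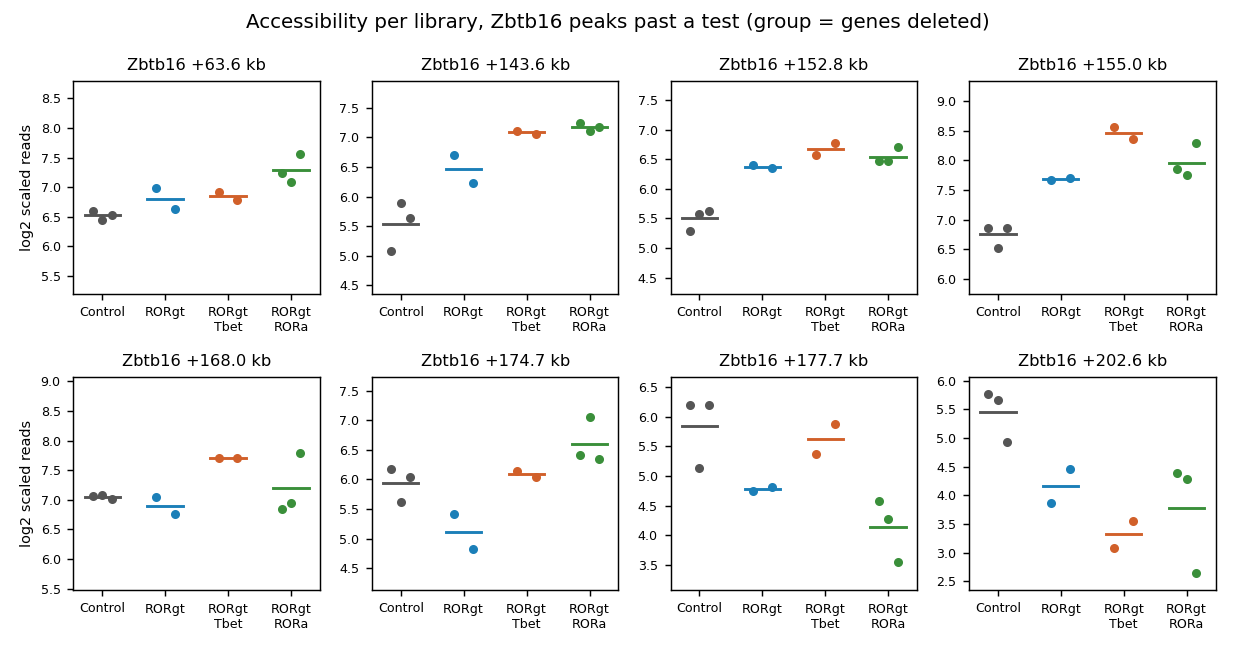
Log2 scaled reads per library (vertical axis) in the 4 groups (horizontal axis) at the Zbtb16 peaks called in any test; points are libraries and bars are group means. Control lies below every knockout library at +143.6, +152.8 and +155.0 kb and above every knockout library at +202.6 kb.

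Bcl11b, the factor of T cell and type 2 ILC commitment, rose at 1 distant peak in RORgt-KO and RORgt-RORa-KO and lay within the Control range in RORgt-Tbet-KO. This peak, at +131.6 kb (chromosome 12, 108041691 to 108042350), lies 37546 bp from the gene, at the end where transcription starts, and was the strongest of its 4. It measured 5.13, 5.37 and 5.81 (Control), 7.0 and 6.95 (RORgt-KO), 6.71, 6.52 and 6.18 (RORgt-RORa-KO), and 5.30 and 5.42 (RORgt-Tbet-KO). RORgt-Tbet-KO lay within the range of Control, and the other knockouts lay above both without overlap. The difference from Control was 1.54 in RORgt-KO (SE 0.28, 2.91-fold, adjusted p = 0.000332), 1.04 in RORgt-RORa-KO (SE 0.25, 2.05-fold, adjusted p = 0.00179) and -0.07 in RORgt-Tbet-KO (SE 0.28, 95% interval -0.64 to 0.49, adjusted p = 0.88).

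The difference between knockouts was tested directly at that peak. RORgt-Tbet-KO was lower than RORgt-KO (-1.62, SE 0.30, 3.06-fold, adjusted p = 0.00313), and RORgt-RORa-KO was higher than RORgt-Tbet-KO by 1.11 (SE 0.28, 2.16-fold, adjusted p = 0.0101). RORgt-RORa-KO and RORgt-KO differed by -0.51 (SE 0.28, adjusted p = 0.473). With groups of 2, the first call did not outlast the loss of RORgt-KO replicate 1 (adjusted p = 0.0792), RORgt-KO replicate 2 (0.0635) or RORgt-Tbet-KO replicate 1 (0.0812), nor a fit without the variance trend (0.0561). The other was lost without RORgt-Tbet-KO replicate 1 (0.148), RORgt-Tbet-KO replicate 2 (0.0893) or RORgt-RORa-KO replicate 1 (0.0619). The sign and size held in each of these fits, between -1.64 and -1.56 and between 0.99 and 1.17.

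The other Bcl11b peaks were small. At +11.4 kb (107921669 to 107921872, 10 to 38 reads) RORgt-RORa-KO rose by 1.34 (SE 0.39, 2.53-fold, adjusted p = 0.00826), from 3.96, 3.69 and 4.14 to 5.73, 5.07 and 5.01. RORgt-KO (5.04 and 4.65) and RORgt-Tbet-KO (4.16 and 4.99) also lay above every Control library and did not pass. Without RORgt-RORa-KO replicate 1 the difference was 1.11 (adjusted p = 0.0637). The gene-end peak at +93.8 kb ranged from 5.20 to 6.07 over all libraries, with differences from Control between -0.14 and 0.28. The peak at +20.3 kb was lower than the Control mean in each knockout, by -1.46, -0.75 and -1.27, and did not pass (adjusted p = 0.102, 0.383 and 0.0629). In RORgt-Tbet-KO against Control, Bcl11b had 0 calls in limma, 0 at an unadjusted p under 0.05 and 0 in voom.

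Ets1, the ETS factor, had 4 of its 14 peaks called, 3 between genes and 1 inside. Over all genes, 3454 of 7572 peaks between genes and 6699 of 14222 inside were called in at least 1 comparison. At the most changed Ets1 peak, RORgt-Tbet-KO stood apart from the other knockouts. This peak (-41.8 kb, chromosome 9, 32594282 to 32594670, 41571 bp below the gene) measured 6.05, 5.37 and 5.20 (Control), 7.03 and 6.61 (RORgt-KO), 7.21, 7.21 and 7.15 (RORgt-RORa-KO), and 4.56 and 5.24 (RORgt-Tbet-KO). RORgt-KO and RORgt-RORa-KO exceeded every Control library, while RORgt-Tbet-KO had 1 library below Control and 1 within its range. The increase was 1.28 in RORgt-KO (SE 0.29, 2.42-fold, adjusted p = 0.00305) and 1.65 in RORgt-RORa-KO (SE 0.26, 3.14-fold, adjusted p = 1.21e-05). RORgt-Tbet-KO differed from Control by -0.64 (SE 0.29, 95% interval -1.23 to -0.06) and did not pass (adjusted p = 0.107).

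Between knockouts, RORgt-Tbet-KO was lower than RORgt-KO there (-1.92, SE 0.31, 3.78-fold, adjusted p = 0.000673) and RORgt-RORa-KO was higher than RORgt-Tbet-KO (2.29, SE 0.29, 4.90-fold, adjusted p = 2.91e-06). RORgt-RORa-KO and RORgt-KO differed by 0.37 (adjusted p = 0.648). The call of RORgt-RORa-KO against RORgt-Tbet-KO held under every alternative run. Without RORgt-KO replicate 1, the difference of RORgt-KO from Control was 1.07 (adjusted p = 0.108) and the difference from RORgt-Tbet-KO -1.71 (adjusted p = 0.064). That difference was -1.58 without RORgt-Tbet-KO replicate 1 (adjusted p = 0.0564), and its adjusted p was 0.0578 without the variance trend.

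A smaller peak on the same side (-20.2 kb, 32615953 to 32616206, 10 to 52 reads) had a like order of groups. It measured 3.69, 3.96 and 4.68 (Control), 4.93 and 5.04 (RORgt-KO), 5.69, 5.21 and 5.54 (RORgt-RORa-KO), and 3.23 and 3.55 (RORgt-Tbet-KO). RORgt-Tbet-KO was below and RORgt-RORa-KO above all Control libraries, without overlap. RORgt-RORa-KO rose by 1.37 against Control (SE 0.39, adjusted p = 0.00787) and was higher than RORgt-Tbet-KO by 2.09 (SE 0.44, 4.26-fold, adjusted p = 0.00224), whereas RORgt-KO differed from Control by 0.88 (adjusted p = 0.217) and from RORgt-Tbet-KO, taken the other way, by -1.59 (adjusted p = 0.114). The 2.09 was 1.26 with thinned reads (adjusted p = 0.127) and 1.93 without RORgt-Tbet-KO replicate 1 (adjusted p = 0.0628). The third peak on this side, at -44.4 kb, did not pass in any comparison, with differences from Control of -0.10, -0.05 and -0.20.

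Inside Ets1, the peak at +104.8 kb (32740826 to 32741299) fell by 0.91 in RORgt-KO (SE 0.25, adjusted p = 0.0151) and by 0.93 in RORgt-RORa-KO (SE 0.22, adjusted p = 0.00204). It measured 7.19, 7.61 and 7.39 (Control), 6.90 and 6.08 (RORgt-KO), 6.57, 6.14 and 6.70 (RORgt-RORa-KO), and 6.77 and 7.15 (RORgt-Tbet-KO), so all knockout libraries were below Control. The difference of -0.44 in RORgt-Tbet-KO did not pass. Without RORgt-KO replicate 2 the RORgt-KO difference was -0.50 (adjusted p = 0.417), and its adjusted p was 0.0698 without Control replicate 2 and 0.0914 without the variance trend. The strongest of all 38 peaks, at +107.7 kb, measured 8.69, 8.25 and 8.36 (Control), 8.19 and 8.23 (RORgt-KO), 8.09, 7.88 and 8.48 (RORgt-RORa-KO), and 8.67 and 8.64 (RORgt-Tbet-KO). Its groups did not pass in any comparison, with differences from Control of -0.23, 0.23 and -0.28.

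At the far side (+162.1 kb, 32798251 to 32798451) a peak of 2 to 21 reads was called in RORgt-RORa-KO (1.74, SE 0.62, adjusted p = 0.0333), with 3.18, 1.37 and 3.48 in Control and 4.88, 4.63 and 3.75 in RORgt-RORa-KO. RORgt-KO had 4.45 and 3.82 and RORgt-Tbet-KO 3.72 and 2.33, so RORgt-KO overlapped RORgt-RORa-KO, and RORgt-Tbet-KO overlapped Control. It did not pass the F test (adjusted p = 0.0929). The call was lost without Control replicate 2 (adjusted p = 0.197), RORgt-RORa-KO replicate 1 (0.138) or RORgt-RORa-KO replicate 2 (0.0794), without the variance trend (0.0516) and with these groups alone (0.055). In RORgt-Tbet-KO against Control, Ets1 had 0 calls in limma, 3 at an unadjusted p under 0.05 and 2 in voom. Between RORgt-RORa-KO and RORgt-KO, Bcl11b and Ets1 had 0 calls in limma and in voom, and at an unadjusted p under 0.05 Bcl11b had 0 and Ets1 had 1.

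**Figure D4:**
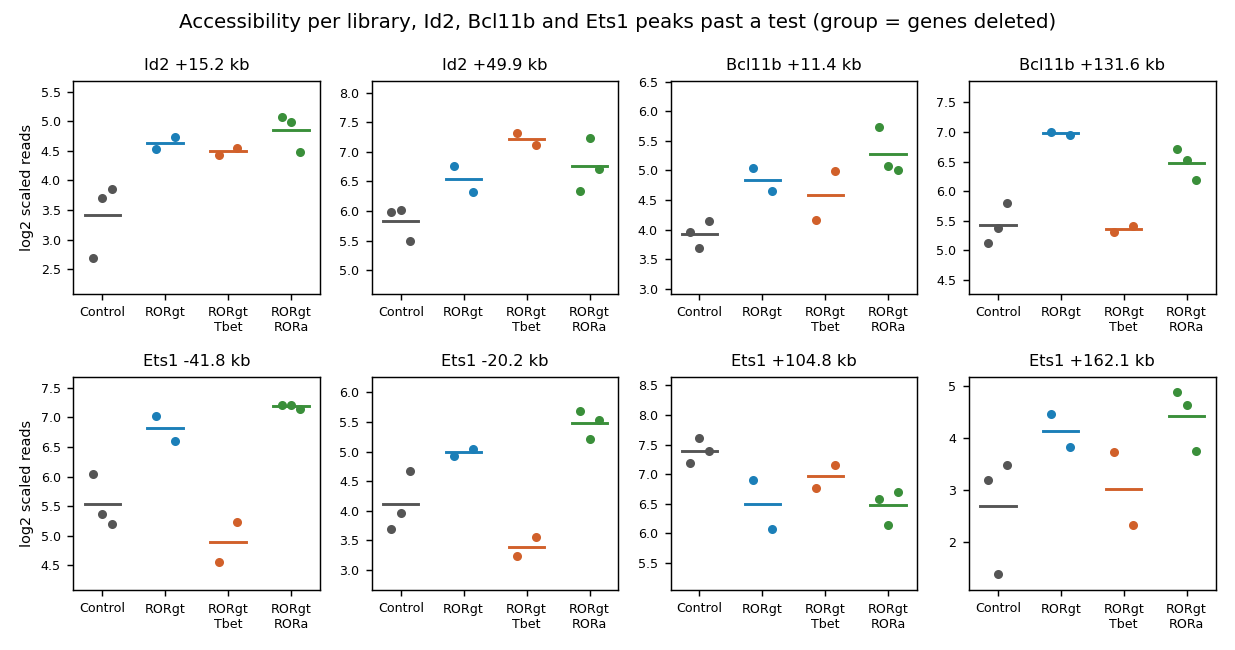
Log2 scaled reads per library (vertical axis) in the 4 groups (horizontal axis) at the called peaks of Id2, Bcl11b and Ets1; points are libraries and bars are group means. RORgt-Tbet-KO lies near or below Control at Bcl11b +131.6 kb and at Ets1 -41.8 and -20.2 kb, and above Control at Id2 +49.9 kb.

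The 22 peaks that were never called had means from 3.92 to 8.35 and differences from Control between -1.46 and 0.65, the smallest adjusted p being 0.0574. Peaks of 1 gene did not share a single course over the 10 libraries: the Pearson correlation between peaks of the same gene ranged from -0.92 to 0.94 in Zbtb16 (median 0.24 over 91 pairs), from -0.82 to 0.87 in Ets1 (0.04, 91 pairs), from -0.26 to 0.82 in Id2 (0.17, 15 pairs) and from -0.70 to 0.70 in Bcl11b (-0.07, 6 pairs). These points share their libraries and depth. Summed over its peaks, Bcl11b ranged from 7.09 to 7.26 in Control, 7.77 to 7.88 in RORgt-KO, 6.84 to 7.17 in RORgt-Tbet-KO and 7.47 to 7.86 in RORgt-RORa-KO, on the log2 scale of summed scaled reads. The Zbtb16 sum ranged from 10.14 to 10.18, 10.15 to 10.34, 10.74 to 10.81 and 10.39 to 10.79 in the same order. The order of groups in the sums therefore differed between these 2 genes, with RORgt-Tbet-KO reaching lowest for Bcl11b, where it overlapped Control, and highest for Zbtb16, where it overlapped RORgt-RORa-KO. For Zbtb16 the deepest libraries, RORgt-Tbet-KO replicates 1 and 2 and RORgt-RORa-KO replicate 3, held the highest sums, from 10.74 to 10.81. The rest reached at most 10.46. The same libraries were highest for Id2 (9.57 to 9.86, the rest at most 9.48) and Ets1 (10.63 to 10.82, the rest at most 10.59). That was not so for Bcl11b. The part of depth in these sums was not tested.

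Each gene's course, the mean over its peaks of values centred per peak, was compared with that of 3866 genes with at least 3 peaks. The most alike over the 10 libraries by Pearson r were Wwp2 (0.959), Bst2 (0.950) and Gtf2i (0.950) for Id2, and Rtp3 (0.974), Dido1 (0.932) and Fam126a (0.902) for Zbtb16. For Bcl11b they were Setd4 (0.895), Lyn (0.889) and Gm32719 (0.883), and for Ets1 Lck (0.975), Cops4 (0.967) and Kifbp (0.966). Among the members, Bcl11b and Ets1 had an r of 0.67 and Id2 and Zbtb16 of 0.55, and the other pairs lay between -0.11 and 0.26.

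Genes of the same pathways were counted from fixed lists. Of 135 peaks at 16 other early ILC factors, RORgt-KO had 16 higher and 5 lower, RORgt-Tbet-KO had 39 higher and 10 lower, and RORgt-RORa-KO had 34 higher and 23 lower, or 15.6%, 36.3% and 42.2% called. Runx1 and Runx3, which bind DNA with CBFb, the zinc finger repressor gene Gfi1, and Tbx21, the gene of T-bet that is itself floxed in RORgt-Tbet-KO, held higher peaks and no lower peak in each of the 3 knockouts. Sox4 went the other way in each, with differences of -0.62, -0.87 and -1.15 at its peak at 28952086. Gata3 held lower peaks and no higher peak in RORgt-Tbet-KO and RORgt-RORa-KO. Tox, a chromatin factor of early ILCs, held the peak at 6846049 that fell by 2.42 in RORgt-KO (SE 0.54, adjusted p = 0.00293), and differed by -3.05 in RORgt-Tbet-KO (SE 0.54, adjusted p = 0.000162) and by -2.29 in RORgt-RORa-KO (SE 0.48, adjusted p = 0.000555). Other Tox peaks were called higher, at 6970364 in RORgt-Tbet-KO (1.17, adjusted p = 0.00282) and at 6975806 in RORgt-RORa-KO (0.88, adjusted p = 0.0178). The E proteins and other ID proteins (5 genes, 22 peaks), the partners and relatives of ID2, had 0 called peaks in RORgt-KO in limma and voom (2 at an unadjusted p under 0.05), 2 higher and 0 lower in RORgt-Tbet-KO (9.09%, with 6 called in voom) and 2 higher and 2 lower in RORgt-RORa-KO (18.2%, with 4 in voom).

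The other ETS family genes (13 genes, 86 peaks) had 5 higher peaks and 1 lower in RORgt-KO, 17 higher and 8 lower in RORgt-RORa-KO, and 15 higher and 4 lower in RORgt-Tbet-KO (6.98%, 29.1% and 22.1%). Fli1, the ETS gene beside Ets1 on chromosome 9, rose at 32507072 by 0.60 in RORgt-KO (SE 0.19, adjusted p = 0.0398), by 0.86 in RORgt-Tbet-KO (SE 0.19, adjusted p = 0.00179) and by 0.85 in RORgt-RORa-KO (SE 0.17, adjusted p = 0.000347). The other BTB zinc finger and Bcl11 genes (9 of 10 genes with 31 peaks, none at Zbtb32) had 2 higher and 4 lower peaks (RORgt-KO), 1 higher and 4 lower (RORgt-Tbet-KO), and 5 higher and 6 lower (RORgt-RORa-KO) (19.4%, 16.1% and 35.5%). Bcl11a, the relative of Bcl11b, fell at 24077007 by 0.73, 0.94 and 0.83 in the same order (SE 0.23, 0.23 and 0.21, adjusted p = 0.0348, 0.00368 and 0.00254). The members and lists stand beside backgrounds of 12.3%, 22.6% and 31.2%, and the comparisons share the Control libraries.

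All 10 ILC marker genes had peaks (58 in all), of which 7, 17 and 12 were called higher and 4, 4 and 10 lower in RORgt-KO, RORgt-Tbet-KO and the third knockout. The shares called were 19%, 36.2% and 37.9%, beside 12.3%, 22.6% and 31.2% of all peaks. The summed log2 level of the ILC marker peaks was 12.69 to 12.90 in Control, 12.75 to 12.80 in RORgt-KO, 12.73 to 12.95 in RORgt-RORa-KO and 13.03 to 13.05 in RORgt-Tbet-KO, the group that also reached highest in the Zbtb16 sum. Among markers of other cells, 3 of 7 B cell genes had peaks (12), with none at Cd79a, Cd79b or Ms4a1, and 6 of 11 T cell genes (9 peaks), with none at Cd3g, Cd8a, Cd8b1, Cd6 or Themis. The summed log2 level of the B cell peaks was 10.05 to 10.16 (Control), 9.41 to 9.44 (RORgt-KO), 9.49 to 9.72 (RORgt-Tbet-KO) and 9.17 to 9.40 (RORgt-RORa-KO), with 5, 5 and 6 of 12 peaks called lower in the knockouts and 0 higher. That of the T cell peaks was 8.82 to 8.96, 8.87 to 8.90, 9.03 to 9.29 and 9.24 to 9.30, with 1, 3 and 4 of 9 called higher and 1, 2 and 2 lower. Epithelial genes (4 of 7, 8 peaks) summed to 8.97 to 9.08, 9.23 to 9.32, 9.48 to 9.61 and 9.36 to 9.41 in the same order of groups, with 1, 1 and 2 peaks called higher and 1, 0 and 1 lower. Stromal and endothelial genes (3 of 5, 12 peaks) summed to 8.72 to 8.99, 9.10 to 9.18, 9.42 to 9.48 and 9.26 to 9.57, with 1, 2 and 4 called higher and 0, 0 and 1 lower. Both of these sums were above Control in every knockout library, as at the Zbtb16 peaks at +143.6, +152.8 and +155.0 kb, and the B cell sum was below Control in every one. Beside the same backgrounds, the shares called were 41.7%, 41.7% and 50% for B cell peaks and 22.2%, 55.6% and 66.7% for T cell peaks. For epithelial peaks they were 25%, 12.5% and 37.5%, and for stromal and endothelial peaks 8.33%, 16.7% and 41.7%. Of 6 myeloid genes 1 had a peak, which was not called. The part of these levels in the member results was not tested; Zbtb16, Bcl11b and Ets1 are also used by T cells and Ets1 by B cells.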

How the data were processed

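ATAC-seq of 10 libraries was given as 1 table of 36262 peaks, of which 11 on the Y chromosome were left out. The values are the authors' deposited log2 scaled read counts per peak. Per the submitters' processing notes, Trim Galore 0.62, Bowtie2 2.3.5.1, SAMtools, MACS2 and the GRCm38 build were used; how scaling factors were set is not stated in the labels. Each library's values lay on steps of whole reads (tolerance 0.01), from which reads and depth (2271585 to 5047436 reads in peaks) were recovered. Reads in peaks limit the precision: the median SE of a difference was 0.27 to 0.33.

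Peaks were joined to the nearest protein-coding gene body within 50 kb, with RefSeq gene positions on GRCm38.p6 (32579 peaks, 13135 genes). The 4 groups were fitted together with limma 3.58.1 (R 4.3.3, moderated tests with a variance trend, residual df 6), with 6 comparisons and an F test, each adjusted by Benjamini-Hochberg over 36251 peaks, threshold 0.05. P-values measure the spread between these libraries, which limma draws from each peak and from a trend over all peaks. That trend had the larger weight, with a prior df of 22.5 beside the residual df of 6. Python 3.11.15 was used for joins and motif searches. The test was also run on simulated data, but the outcome is not given here and no call above rests on it.

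Alternatives were median centring, quantile normalization, no variance trend, the lowest 20% of peaks left out, pseudocounts of 1 and 5 reads, voom on recovered reads, library weights, a replicate block, 1 library left out, only the groups compared, a 5 kb distance and, chosen after seeing the data, thinned reads. Per-library values are given for every called peak, at most 8 a gene, and each gene's highest peak; the 3 most alike genes were named by Pearson r. The members and gene lists were chosen with earlier results of these data known. List peaks named are examples chosen after their values were seen.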

Additional observations from a re-analysis of the deposited data

Results flagged for a closer look

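At 5 peaks the response to deletion differed between knockouts, by a direct test of the difference (limma, adjusted over all peaks). At Bcl11b +131.6 kb (108041691) RORgt-Tbet-KO minus RORgt-KO was -1.62 and RORgt-RORa-KO minus RORgt-Tbet-KO was 1.11. At Ets1 -41.8 kb (32594282) the same differences were -1.92 and 2.29. At Ets1 -20.2 kb (32615953) RORgt-RORa-KO minus RORgt-Tbet-KO was 2.09. Inside Zbtb16, RORgt-RORa-KO minus RORgt-KO was 1.49 at +174.7 kb (48826291) and RORgt-RORa-KO minus RORgt-Tbet-KO was -1.49 at +177.7 kb (48829328). Only RORgt-RORa-KO minus RORgt-Tbet-KO at Ets1 -41.8 kb held under every alternative run, and each of the other calls was lost under 2 or more. These comparisons share libraries with one another and are not independent.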

How the results depend on the processing

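None of the 33 called differences at member peaks changed sign under any alternative run. All testable calls held under median centring, both pseudocounts, voom, library weights and with the lowest 20% of peaks left out, while 1 was lost with quantile normalization, 8 without the variance trend, 3 with thinned reads and 1 with only the groups compared. Member counts moved most between knockouts. RORgt-Tbet-KO against RORgt-KO went from 2 to 9 with library weights, 10 with only these groups, 0 within 5 kb and 0 without the variance trend. RORgt-RORa-KO against RORgt-KO went from 1 to 0 without the trend, and RORgt-RORa-KO against RORgt-Tbet-KO from 4 to 11 with weights, 2 thinned and 1 within 5 kb. RORgt-Tbet-KO against Control went from 6 to 11 with weights; within 5 kb, RORgt-RORa-KO against Control had 7 and the F test 8, where fewer peaks were members. The cause of the other shifts was not tested.

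Leaving out 1 library gave 3 to 8 calls for RORgt-KO against Control, 4 to 8 for RORgt-Tbet-KO, 11 to 15 for RORgt-RORa-KO, 0 to 3, 0 to 1 and 1 to 9 for the comparisons between knockouts in the order above, and 10 to 16 for the F test. Where a group was left with 1 library, that library was assumed to vary like the others. Over all peaks, RORgt-Tbet-KO against RORgt-KO had 415 calls, against 3148 with weights, 3341 with only these groups, 666 with the replicate block, 664 with voom and 95 without the trend. RORgt-RORa-KO against RORgt-KO had 534, against 1212 with weights and 45 without the trend, RORgt-RORa-KO against RORgt-Tbet-KO 2733, against 6272 and 1505, and RORgt-Tbet-KO against Control 8189, against 12468 with weights.

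For libraries with the same replicate number, the correlation of their deviations from the group mean was small and of both signs, -0.12 to 0.14 in 13 pairs. In 24 other pairs it was -0.14 to 0.14. Those are no independent comparison, since in a group of 2 the deviations are exact opposites. Control replicate 1, for example, had -0.02 with RORgt-KO replicate 1 and 0.02 with its replicate 2. Comparing the ranges therefore cannot decide whether libraries of 1 number deviated together. The numbers were not used to pair samples in the main fit. With a replicate block the member counts were 8, 9 and 15 against Control, 3, 1 and 6 between knockouts and 16 in the F test, and all 33 calls held. Peaks of under about 50 reads, such as Id2 +15.2 kb and Ets1 +162.1 kb, are limited by depth and by groups of 2 or 3.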

Other observations

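Beyond the 50 kb limit, 17 further peaks had one of these genes as nearest within 150 kb (11 Id2, 4 Ets1, 2 Bcl11b). The peaks named here were chosen after their values were seen. The peak 143693 bp above Id2 (25239785) was stronger than any of the 38, at 9.65, 9.41 and 9.46 (Control), 9.35 and 9.18 (RORgt-KO), 8.57, 8.33 and 9.14 (RORgt-RORa-KO), and 9.83 and 9.89 (RORgt-Tbet-KO). RORgt-RORa-KO lay below all other libraries, and the difference was -0.83 from Control (SE 0.17, adjusted p = 0.0004) and -1.18 from RORgt-Tbet-KO (SE 0.19, adjusted p = 0.00011). Another, 132582 bp from Id2 (25228674), was higher in RORgt-RORa-KO, by 1.46 against Control (SE 0.36, adjusted p = 0.0025) and 1.51 against RORgt-Tbet-KO (SE 0.40, adjusted p = 0.018). RORgt-Tbet-KO differed there from Control by -0.05.

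Near Bcl11b, 126115 bp below the gene, a peak at 107783785 fell in all 3 knockouts, by 1.89 in RORgt-KO (SE 0.37, adjusted p = 0.00095), by 1.19 in RORgt-Tbet-KO (SE 0.37, adjusted p = 0.022) and by 1.52 in RORgt-RORa-KO (SE 0.33, adjusted p = 0.00086). Above Ets1, the peak nearest to the limit (32820314, 62494 bp away) rose by 0.78 in RORgt-Tbet-KO (SE 0.22, adjusted p = 0.011) and by 0.68 in RORgt-RORa-KO (SE 0.20, adjusted p = 0.0092). A peak farther out, at 32883106, fell by 0.84 in RORgt-KO (SE 0.24, adjusted p = 0.022) and by 1.20 in RORgt-RORa-KO (SE 0.22, adjusted p = 0.00011).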
